A study of Mus musculus with 16 samples.

Results

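ATM-deficient and wild-type (WT) mouse B cells were compared under anti-CD40 plus IL4, by the places in the genome to which a single introduced DNA break had joined. The comparison used 47648 junctions of the 141168 in the series, from 3 libraries of the ATM-/- genotype (21797 junctions) and 4 of the WT genotype (25851 junctions), out of 16 libraries. Members were all libraries of these genotypes given this stimulus without inhibitor, and each junction was counted once. The method, high-throughput genome-wide translocation sequencing (HTGTS), amplifies DNA from one side of the chosen break (the bait) and reads the genomic end joined to it (the prey). In both groups IgM+ B cells came from spleens of 129sv mice aged 6 to 8 weeks, and 1 Myc allele carried a cassette of 25 I-SceI sites in its first intron. They were cultured with anti-CD40 at 1 µg/mL and IL4 at 20 ng/mL, infected after 24 h with a retrovirus for I-SceI and GFP, and harvested on day 4. The labels do not say whether libraries came from separate mice, so the p-values below measure only the spread between libraries. The files hold no expression values, so neither the loss of Atm nor the cell type could be checked by level. Of 9 genes that mark B cells, 8 had a junction, and of 9 genes that mark other blood cells 1 did (Csf1r, 1 junction). A junction does not measure expression, and these counts are not set against all genes. They do not test the cell type.

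ATM is the kinase that senses DNA double-strand breaks, signals to the cell cycle checkpoint and helps hold broken ends together for joining. In B cells stimulated through CD40 and IL4, the deaminase AID starts breaks in the switch regions of Igh, the antibody heavy chain locus, so that Smu, the donor switch region, can join Sg1 or Se, the acceptors for IgG1 and IgE. Most such breaks are joined within Igh by end joining, and a few join elsewhere, as to a break in Myc.

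The WT libraries held 6899, 5899, 8379 and 4674 junctions and the ATM-/- libraries 7725, 8449 and 5623. Outside chromosome 15, which carries Myc, the counts were 1307, 910, 1509 and 731 in WT and 2192, 2714 and 1912 in ATM-/-. Values are given below in this order, WT replicates 1 to 4 and then ATM-/- replicates 1 to 3. Pairs of libraries shared between 4 and 35 prey positions outside chromosome 15. WT replicate 3 and ATM-/- replicate 2 came from the same sequencing run, as did WT replicate 4 and ATM-/- replicate 3, and differences within these runs are given beside the main results. WT replicate 1 stood apart: 3.48% of its junctions held bait sequence past the first I-SceI cut, against 14% to 22.8% in the other libraries, and its median read was 258 bases long, beside 264 in WT replicate 2 and 311 to 326 in the rest. The aligned prey outside chromosome 15 had a median length of 96, 79, 104 and 95 bases in WT and 109, 111 and 120 in ATM-/-, and the part of this difference in the results was not tested.

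The sequences below show where recurrent junctions in the switch regions lay, since Igh is the main prey locus outside chromosome 15. Each is a window of 17 bases of mm9 on chromosome 12 from the deposited files, read 5′ to 3′ in the direction of the prey, with the first joined base in capitals. The positions are 3 of those with most junctions in each region. Other positions tied with those hit 2 times, since 51 positions in Igh C/S were hit in 2 or more libraries.
Smu, minus strand, chr12:114663949-114663965: tctaaaAtgcgctaaac
Smu, plus strand, chr12:114663576-114663592: ctcagcTcaccccagct
Smu, plus strand, chr12:114663644-114663660: gcccagCtcagctcacc
Sg1, minus strand, chr12:114575566-114575582: gaacatGgggagcagga
Sg1, plus strand, chr12:114572545-114572561: ccatccTtcattctaac
Sg1, plus strand, chr12:114575288-114575304: gtctttCcctccttcaa
Se, minus strand, chr12:114514516-114514532: gctagcTtttgtatatt
Se, plus strand, chr12:114513571-114513587: agcacaGcacagcattc
Se, plus strand, chr12:114513684-114513700: caatgcAgtccagctca
Each was hit 2 or 3 times in the 7 libraries, so no single base carried the signal of a switch region. The first Smu position had 3 WT and 0 ATM-/- junctions, and the first Sg1 and Se positions each had 2 WT and 1 ATM-/- junctions.

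On chromosome 15 the ATM-/- libraries had a smaller share of junctions close to the break and a larger share far from it. Within 10 kb of the break lay 69.2, 74.6, 70.7 and 74.6% of WT junctions, against 55.8, 50.3 and 47.2% in ATM-/-. Within 1 Mb the shares were 75.7, 80.9, 77.9 and 80.5% against 59.1, 53.7 and 50.8%. The groups did not overlap, and within the shared runs the share within 1 Mb differed by -24.2 and -29.7 percentage points. Junctions outside chromosome 15 made up 17% ± 1.74 (SD, n = 4) of WT junctions and 31.5% ± 2.86 (SD, n = 3) of ATM-/- junctions. EdgeR's quasi-likelihood test with Benjamini-Hochberg adjustment gave a log2 fold change of 0.89 for them (SE 0.09, adjusted p = 5.01e-08), and with DESeq2's size factors the value was -0.085 (adjusted p = 0.522). These shares have a common total, so a lower share near the break and a higher one elsewhere are not separate measurements.

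Of 19 regions tested, 18 on chromosome 15 by side and distance and 1 for the rest of the genome, edgeR called 17 (89.5%): 12 higher (63.2%) and 5 lower (26.3%) in ATM-/-. The split depends on the scale. DESeq2's size factors moved the median log2 fold change of the regions by -0.97 and called 6 higher and 8 lower. Taking only junctions beyond 10 kb as library size moved it by -0.80 and called 9 higher and 4 lower of 15. Taking chromosome 15 junctions as library size moved it by 0.28 and called 12 higher and 5 lower of 18.

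The 5 regions called lower were the telomeric side from the break to 1 Mb and the centromeric side from 1 to 10 kb. Telomeric of the break, on the side that holds the rest of Myc and the neighbouring Pvt1, the first 1 kb went from 37.3% ± 2.70 in WT (SD, n = 4) to 26.1% ± 4.00 in ATM-/- (SD, n = 3), and the next region, to 10 kb, from 19.2% ± 0.234 to 10.7% ± 0.987. Their log2 fold changes were -0.52 (SE 0.11) and -0.84 (SE 0.09). Between 10 and 100 kb the telomeric share fell from 2.28% ± 0.438 to 0.905% ± 0.0361, with -1.34 (SE 0.25). The strongest fall lay between 100 kb and 1 Mb telomeric, where the libraries held 2.59, 2.58, 2.90 and 2.44% in WT and 0.712, 0.568 and 0.587% in ATM-/-. Every WT library was above every ATM-/- library there, with -2.08 on the log2 scale (SE 0.21, adjusted p = 4.84e-08, edgeR). Centromeric of the break the region from 1 to 10 kb fell from 7.50% ± 1.40 to 2.95% ± 1.06, with -1.34 (SE 0.24, adjusted p = 3.70e-05, edgeR). All 5 stayed lower and past the threshold in every alternative fit that held them.

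The decrease was not symmetric. Centromeric of the break, the region from 100 kb to 1 Mb held 0.988% ± 0.0791 in WT and 1.28% ± 0.0495 in ATM-/- (log2 fold change 0.36, SE 0.19, adjusted p = 0.0765, edgeR), and that from 10 to 100 kb 0.583% ± 0.138 and 0.647% ± 0.109 (0.16, adjusted p = 0.558, edgeR). Neither passed the test, and with DESeq2's size factors both were called lower (-0.61 and -0.82). With chromosome 15 junctions as library size the former was called higher (0.64, adjusted p = 0.00468, edgeR). The latter was not called on that scale (0.43, adjusted p = 0.119, edgeR). The first 1 kb centromeric held 6.73, 8.39, 9.27 and 8.32% in WT and 11.1, 14 and 8.86% in ATM-/-. These libraries overlapped, and its call as higher (0.47, SE 0.21, adjusted p = 0.0448, edgeR) was lost when any library but WT replicate 3 or ATM-/- replicate 3 was left out (adjusted p between 0.0554 and 0.238). It was also lost with TMM factors (0.25, adjusted p = 0.205), with a replicate block (0.46, adjusted p = 0.0828) and with sequencing run in the model (0.35, adjusted p = 0.0590). That last model compares the groups only within the shared runs, so it had less power. The call was lost too with 1 junction per position and strand (-0.018) or with the break set at the median junction labelled Myc (-0.071). DESeq2 called the same region lower (-0.52, adjusted p = 0.0310). With chromosome 15 junctions as library size it stayed higher (0.75, adjusted p = 0.00217, edgeR).

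**Figure D1:**
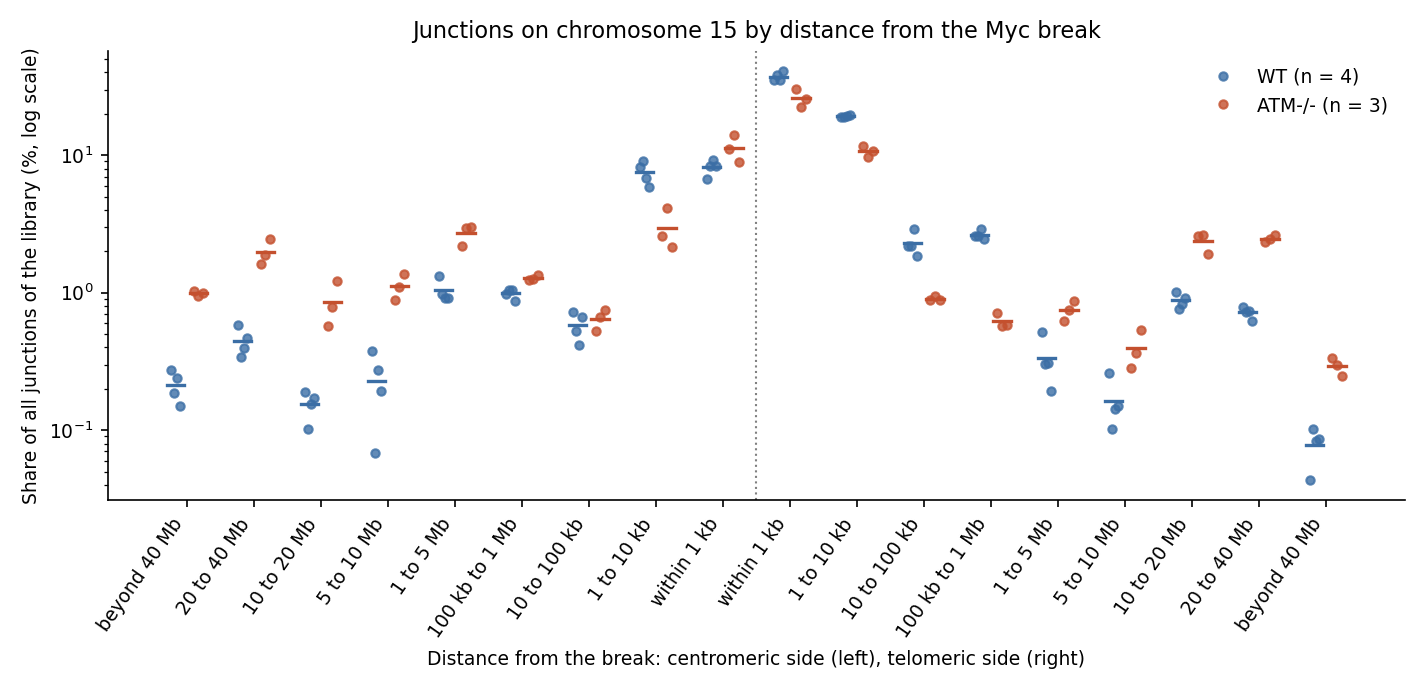
Share of all junctions of each library (%, log scale) in 18 regions of chromosome 15, by distance from the break on the centromeric side (left of the dotted line) and the telomeric side (right). Points are libraries and bars group means. Telomeric shares are lower in ATM-/- (n = 3) than in WT (n = 4) in every region up to 1 Mb and higher in every region beyond it.

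Beyond 1 Mb every region of chromosome 15 was called higher in ATM-/-, with all libraries of the groups apart. Centromeric of the break the shares went from 1.04% to 2.72% at 1 to 5 Mb, from 0.228% to 1.12% at 5 to 10 Mb, from 0.154% to 0.853% at 10 to 20 Mb, from 0.446% to 1.99% at 20 to 40 Mb and from 0.213% to 0.993% beyond 40 Mb. The log2 fold changes, in the same order, were 1.38, 2.22, 2.43, 2.15 and 2.18. Telomeric of the break they were 1.12 at 1 to 5 Mb, 1.21 at 5 to 10 Mb, 1.43 at 10 to 20 Mb, 1.77 at 20 to 40 Mb and 1.92 beyond 40 Mb. The region 20 to 40 Mb telomeric, for example, held 0.783, 0.729, 0.740 and 0.620% in WT and 2.36, 2.44 and 2.63% in ATM-/- (adjusted p = 2.66e-08, edgeR). With DESeq2's size factors the calls at 1 to 5 Mb on both sides and at 5 to 10 Mb and over 40 Mb telomeric were lost (adjusted p = 0.0504, 0.580, 0.522 and 0.0523). With junctions beyond 10 kb as library size those at 1 to 5 and 5 to 10 Mb telomeric were lost (adjusted p = 0.159 for both). The rest of the genome differed less than these regions. Chromosome 15 beyond 1 Mb made up 22.1, 19.3, 18.5 and 19.8% of all junctions beyond 1 Mb in WT and 30.5, 30.6 and 31.0% in ATM-/-, with differences of 12.1 and 11.1 points within the shared runs. With junctions beyond 1 Mb as library size, a setting added after the data were seen, edgeR called 6 of 11 regions. The rest of the genome was then lower (-0.21, adjusted p = 2.29e-05), and 5 regions were higher: 5 to 10 Mb (1.14), 10 to 20 Mb (1.34), 20 to 40 Mb (1.06) and over 40 Mb (1.11) centromeric, and 20 to 40 Mb telomeric (0.69).

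Within chromosome 15 beyond 1 Mb, the spread along the chromosome also differed, as a description. The nearest region, 1 to 5 Mb centromeric, held 24.4% ± 1.78 of these junctions in WT and 19.4% ± 1.66 in ATM-/-. The regions 5 to 10, 10 to 20, 20 to 40 and over 40 Mb centromeric held 5.14, 3.62, 10.5 and 4.98% in WT and 7.94, 6.01, 14.2 and 7.18% in ATM-/-. WT and ATM-/- libraries were apart in each of these 5 regions and overlapped in all 5 telomeric ones. The genes there with most junctions were named as a description, since chromosome 15 genes were not tested. Nsmce2, a subunit of the SMC5/6 complex that keeps chromosomes intact, lay 2.47 Mb centromeric and had 7, 4, 3 and 5 junctions in WT and 18, 18 and 10 in ATM-/-. Its share of all junctions was 0.0780% ± 0.0330 and 0.208% ± 0.0279. Ext1, which builds heparan sulfate, lay 8.76 Mb centromeric and had 2, 1, 0 and 0 junctions in WT and 3, 17 and 8 in ATM-/-. Csmd3, a very long gene of the nervous system, lay 14 Mb centromeric and had 3, 1, 3 and 1 against 8, 4 and 13. Mtss1, a regulator of actin, had 7, 4, 4 and 3 against 7, 13 and 11 junctions. Asap1 had 3, 3, 9 and 0 against 7, 14 and 3, and Fam49b 4, 4, 3 and 0 against 1, 9 and 4. Ly6e, a surface protein of lymphocytes 13 Mb telomeric of the break, had 12, 7, 10 and 3 against 10, 9 and 3. Its share, 0.119% ± 0.0448 in WT and 0.0964% ± 0.0390 in ATM-/-, was the only one of these 7 without a higher mean in ATM-/-.

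Divided by strand, the decrease lay mostly in preys read away from the break. A prey on the plus strand is read towards the telomere, so telomeric of the break a plus-strand prey is read away from it and a minus-strand prey towards it. This division was added after the data were seen, and edgeR called 26 of 37 region and strand classes (70.3%), 20 higher (54.1%) and 6 lower (16.2%). Of the 6, 5 were read away from the break, and the sixth was the plus strand from 1 to 10 kb centromeric (-0.71, adjusted p = 0.0156, edgeR). Telomeric plus-strand junctions between 100 kb and 1 Mb made up 2.30, 2.27, 2.65 and 2.18% in WT and 0.505, 0.355 and 0.338% in ATM-/-. All ATM-/- libraries lay far under the lowest WT library (log2 fold change -2.55, SE 0.26, adjusted p = 2.19e-07, edgeR). Between 10 and 100 kb telomeric plus-strand junctions made up 1.99, 2.00, 2.65 and 1.60% against 0.621, 0.473 and 0.551% (-1.92, SE 0.29). Minus-strand junctions on the same side between 100 kb and 1 Mb, which are read towards the break, made up 0.276% ± 0.0262 and 0.223% ± 0.0227 and did not pass the test (-0.31, adjusted p = 0.248, edgeR).

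Centromeric of the break, minus-strand junctions, read away from it, fell between 1 and 10 kb from 6.60% ± 1.42 to 2.40% ± 1.03 (-1.45, SE 0.28). Between 100 kb and 1 Mb they made up 0.374% ± 0.0410 and 0.307% ± 0.00423, which did not pass (-0.29, adjusted p = 0.240, edgeR). Plus-strand junctions there rose from 0.614% ± 0.0395 to 0.970% ± 0.0537 (0.65, SE 0.21, adjusted p = 0.00831, edgeR). The telomeric plus-strand class turned over within a few Mb, since from 1 to 5 Mb it rose from 0.109% ± 0.0281 to 0.390% ± 0.0614 (1.82, SE 0.24, adjusted p = 1.76e-06, edgeR). Over all junctions from 10 kb to 1 Mb the plus strand took 83.7, 82.1, 84.7 and 80.6% in WT and 71.2, 64.5 and 70% in ATM-/-, with differences of -20.2 and -10.6 points within the shared runs. Beyond 1 Mb on chromosome 15, with both sides pooled, it took 53.1% ± 1.52 and 53.0% ± 2.06. The pooled share does not describe each side. From 1 to 5 Mb centromeric, WT held 195 plus-strand and 75 minus-strand junctions over all libraries, and ATM-/- 346 and 242. From 1 to 5 Mb telomeric, WT held 28 plus-strand and 61 minus-strand junctions, and ATM-/- 84 and 76.

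**Figure D2:**
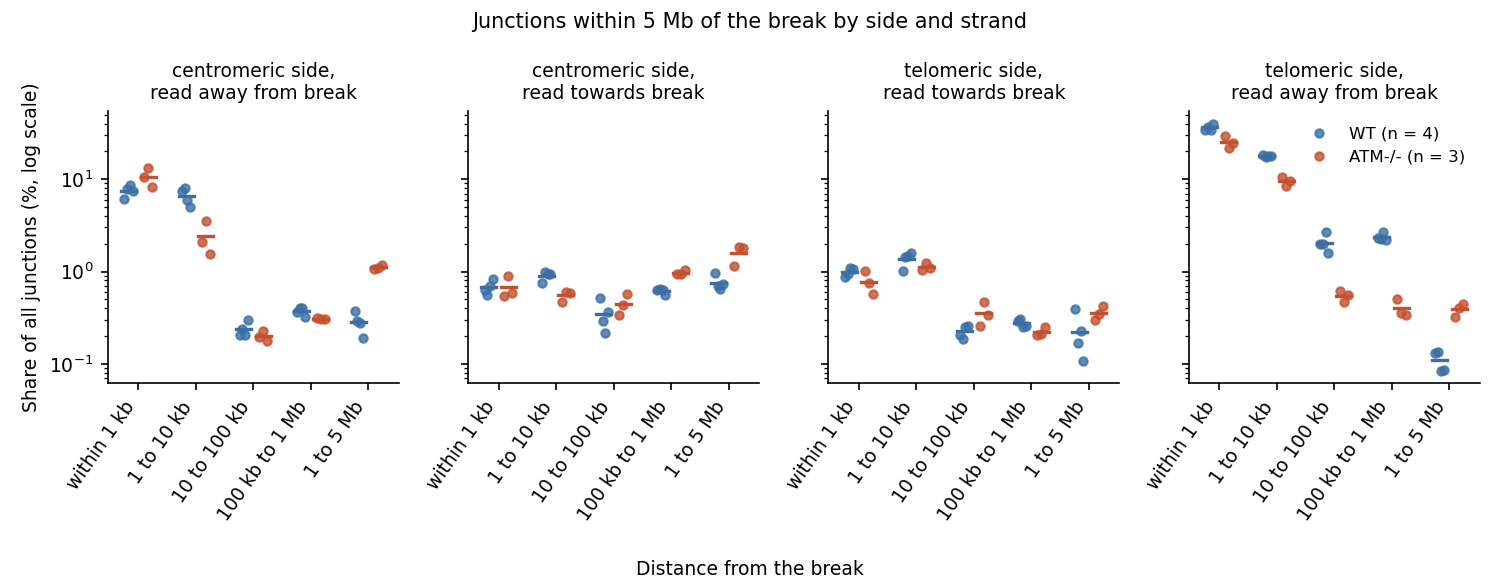
Share of all junctions of each library (%, log scale) within 5 Mb of the break, by distance, in 4 panels for side and reading direction. Points are libraries and bars group means. In the last panel (telomeric, read away from the break) the ATM-/- libraries sit under all WT libraries up to 1 Mb, at 0.338 to 0.505% against 2.18 to 2.65% from 100 kb to 1 Mb, and above them from 1 to 5 Mb.

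Outside chromosome 15 the differences lay on chromosome 12, which carries Igh near its telomeric end. The genome outside chromosome 15 was divided into 29 features (chromosomes, the parts of Igh and the other antigen receptor loci), and edgeR called 2 (6.9%), 1 higher (3.45%) and 1 lower (3.45%). Libraries of the groups were apart in 3 (10.3%), the third being chromosome 13, with 3.21% ± 0.252 in WT and 3.81% ± 0.337 in ATM-/-, which was not called. The part of chromosome 12 centromeric of Igh held 2.60, 4.07, 2.85 and 3.15% of junctions outside chromosome 15 in WT and 8.26, 7.59 and 10.3% in ATM-/-. It was higher in every ATM-/- library (log2 fold change 1.48, SE 0.14, adjusted p = 5.00e-10, edgeR), by 4.74 and 7.10 points within the shared runs. The stretch of Igh with its constant genes and switch regions, called Igh C/S here (chromosome 12 from 114427082 to 114664838, mm9), held 13.4, 11.3, 12.1 and 14.2% in WT and 5.75, 6.89 and 4.86% in ATM-/-, lower in every ATM-/- library (-1.10, SE 0.14, adjusted p = 1.30e-07, edgeR). With all junctions as library size the fold change of Igh C/S was -0.24 (adjusted p = 0.155, edgeR) and 19 features were called, all higher, because the share outside chromosome 15 itself differed. Chromosome 12 as a whole held 16.3, 15.7, 15.5 and 17.9% against 14.4, 15.1 and 15.5%, which overlap (exact permutation p = 0.143, adjusted 0.234). By strand, also added after the data were seen, 4 of 58 classes were called (6.9%), namely both strands of Igh C/S (3.45% of classes, lower) and of the centromeric part (3.45%, higher), with -1.05 and -1.15 for Igh C/S and 1.43 and 1.52 for the centromeric part.

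Per Mb, the centromeric increase was largest in the part nearest Igh. In the last 4.43 Mb before Igh the libraries held 1.21, 2.23, 1.50 and 1.24 junctions per Mb per 1000 junctions outside chromosome 15 in WT and 4.12, 5.41 and 5.08 in ATM-/-, a ratio of the means of 3.15. From 100 to 110 Mb they held 0.153, 0.769, 0.464 and 0.410 against 2.46, 1.73 and 2.67, a ratio of 5.09. The ratio was 3.26 from 90 to 100 Mb, 2.03 from 80 to 90 Mb and 2.18 from 70 to 80 Mb, and the groups did not overlap in any of these bands. From 40 to 70 Mb the libraries overlapped in every band. They also overlapped from 0 to 20 Mb and, with a ratio of 3.86, from 30 to 40 Mb. From 20 to 30 Mb they did not overlap, with 0, 0, 0 and 1 junctions in WT and 7, 5 and 3 in ATM-/-. The ratio there, 6.44, was the largest of all bands, at low counts. In 5 Mb bins over the genome edgeR called 2 of 455 (0.44%), both higher and both between 100 and 110 Mb of chromosome 12. Of all bins, 32 (7.03%) did not overlap between groups. From 105 to 110 Mb the counts were 0, 4, 4 and 2 junctions in WT and 36, 27 and 29 in ATM-/- (2.57, SE 0.45, adjusted p = 5.13e-06, edgeR). From 100 to 105 Mb they were 2, 3, 3 and 1 against 18, 20 and 22 (2.10, SE 0.48, adjusted p = 0.00312, edgeR). The call of this bin was lost without WT replicate 3 (adjusted p = 0.0523), without ATM-/- replicate 3 (0.0547) and in bins of 2 Mb (0.108). It was also lost with the sequencing run as a block (0.0828). That fit compares the groups only within the shared runs, so it had less power.

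The other bins of chromosome 12 from 70 Mb on did not pass the test. Those from 70 to 100 Mb had log2 fold changes of 0.76, 1.35, 0.95, 1.01, 1.17 and 2.23, in order along the chromosome. The bin from 110 to 115 Mb, which holds both the end of the centromeric part and Igh C/S, had -0.71, and the last one -0.37. The former was called lower when only the 7 compared libraries were fitted (-0.70, adjusted p = 0.000335, edgeR), which gave 3 called bins, 1 of them lower, and when chromosome 15 beyond 1 Mb was included (-0.92, adjusted p = 0.000878, edgeR).

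**Figure D3:**
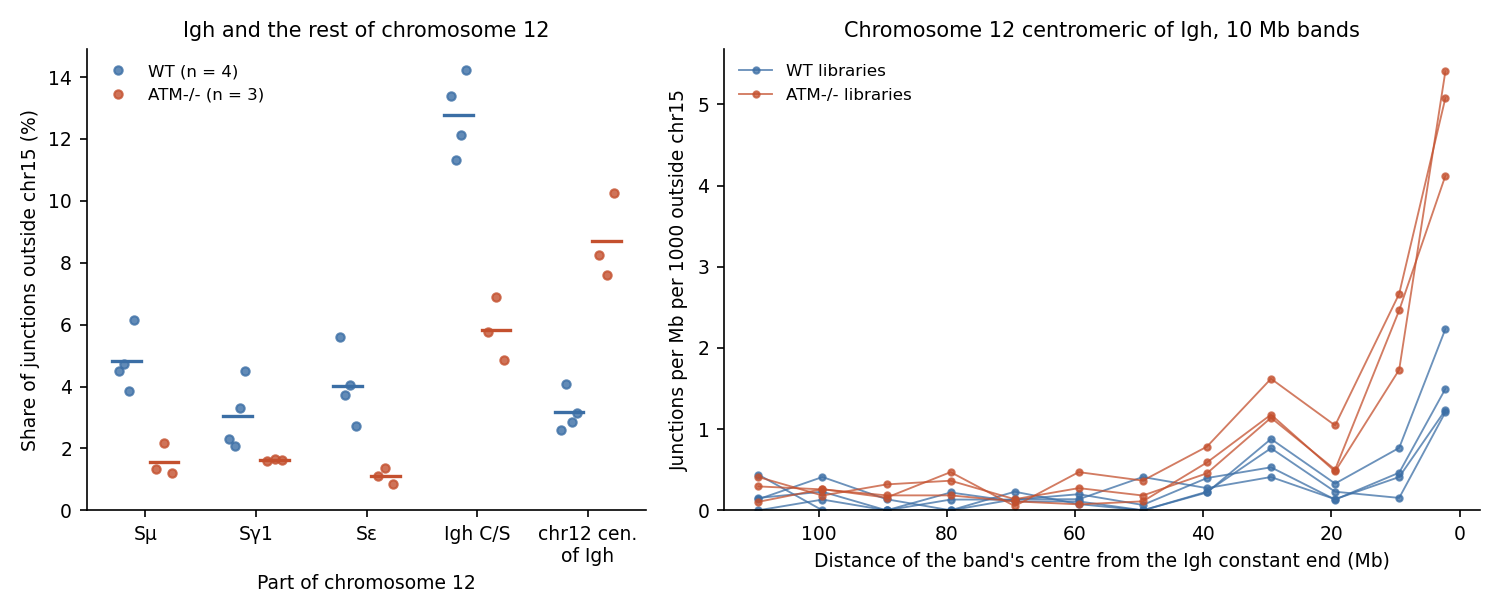
Left, share of junctions outside chromosome 15 (%) in 3 switch regions, in Igh C/S and in chromosome 12 centromeric of Igh, with points for libraries and bars for group means. Right, junctions per Mb per 1000 junctions outside chromosome 15 in 10 Mb bands against distance from Igh, 1 line per library. The ATM-/- lines reach 4.12 to 5.41 next to Igh and the WT lines 1.21 to 2.23.

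Single switch regions did not pass the test, and the gene tally called 0 of 162 genes (0%), with 8 at an unadjusted p under 0.05 by edgeR and 0 called by DESeq2. Smu had 59, 43, 58 and 45 junctions in WT and 29, 59 and 23 in ATM-/-, or 4.81% ± 0.973 (SD, n = 4) and 1.57% ± 0.529 (SD, n = 3) of junctions outside chromosome 15 (-1.60, SE 0.57, adjusted p = 0.440, edgeR). Se had 73, 34, 61 and 20 against 24, 37 and 16, or 4.02% ± 1.18 and 1.10% ± 0.263 (-1.87, SE 0.54, adjusted p = 0.0900, edgeR). Sg1 had 30, 19, 50 and 33 against 35, 45 and 31, or 3.05% ± 1.11 and 1.63% ± 0.0309 (-0.89, SE 0.55, adjusted p = 0.735, edgeR). In all 3 every WT share was above every ATM-/- share. Se was called lower when only the 7 compared libraries were fitted (adjusted p = 1.36e-05), with at least 30 junctions per gene (0.0163) or with junctions beyond 1 Mb as library size (0.0370), and Smu in the first of these (0.000252). Neither was called in the same 7 libraries with sequencing run in the model (0.333 for each). That model compares the groups only within the shared runs, so it had less power. With a replicate block neither was called (0.123 for Se and 0.878 for Smu). The acceptors for isotypes that this stimulus does not induce had few junctions: Sg3 0 in WT and 2 in ATM-/-, Sg2b 0 and 2, Sg2a 2 and 0 and Sa 2 and 0. A count of 0 allows up to 3 counts, 0.0673% of the 4457 WT and 0.0440% of the 6818 ATM-/- junctions outside chromosome 15.

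The mix of switch regions overlapped between the groups. Of switch junctions Smu took 36.2, 44.8, 33.7 and 45.9% in WT and 32.6, 41.5 and 31.9% in ATM-/-, and Sg1 18.4, 19.8, 29.1 and 33.7% against 39.3, 31.7 and 43.1% (exact permutation p = 0.114, adjusted 0.200). Se took 44.8, 35.4, 35.5 and 20.4% against 27, 26.1 and 22.2%, where WT replicate 4 lay under all ATM-/- libraries and the other WT libraries above them (exact permutation p = 0.257, adjusted 0.374). The letters AGCT, the hotspot of AID, lay in the 17-base window of 41.2, 38.5, 42.9 and 43.0% of switch junctions in WT and 41.6, 45.5 and 43.1% in ATM-/-, which overlap. Outside chromosome 15 and Igh C/S they lay in 7.74% ± 0.549 and 8.79% ± 1.13 of windows.

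Within Igh C/S, junctions outside the labelled switch regions were more frequent in the ATM-/- libraries. Their counts were 10, 7, 8 and 4 in WT and 37, 44 and 21 in ATM-/-, or 5.71, 6.80, 4.37 and 3.85% of Igh C/S junctions against 29.4, 23.5 and 22.6%. As a share of junctions outside chromosome 15 they made up 0.765, 0.769, 0.530 and 0.547% against 1.69, 1.62 and 1.10%, so that unlike the switch regions they were higher, not lower, in every ATM-/- library. Within the shared runs the difference was 1.09 and 0.551 points. The exact permutation p was 0.0286, the smallest that 35 splits allow, and 0.0647 after adjustment over 77 shares. Of the 77 shares, 34 reached this smallest p and 0 passed the adjusted threshold (0%), while 42 did not overlap between groups (54.5%).

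Most of these junctions lay in the DNA between switch regions. Between Sg3 and Smu, which holds the Cmu and Cdelta exons, there were 3, 1, 2 and 2 in WT and 10, 13 and 9 in ATM-/-. Between Sg1 and Sg3 there were 2, 1, 2 and 1 against 13, 13 and 5. Centromeric of Sa there were 0 in all 4 WT libraries, and 4, 3 and 3 in ATM-/-. The latter were 0.182, 0.111 and 0.157% of junctions outside chromosome 15, and this gap was not tested on its own. The groups did not overlap in these 3 gaps and overlapped in the others. Pooled over libraries, the median distance to the nearest switch region was 1.22 kb for the 29 WT junctions and 2.23 kb for the 102 ATM-/- junctions, and 4 and 32 of them lay over 5 kb away. In both groups most junctions of this kind thus lay within 5 kb of a switch region, 25 of 29 in WT and 70 of 102 in ATM-/-.

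The ends of the bait also differed, most in Igh. Bait bases lost were counted back from the first I-SceI cut, over junctions whose bait ended at or before it. In Igh C/S the median loss was 5, 7, 5 and 5 bases in WT and 20, 17 and 21 in ATM-/-. No ATM-/- library came near the WT values, and the differences within the shared runs were 12 and 16 bases (exact permutation p = 0.0286, adjusted 0.0647). In the labelled switch regions alone the medians were 6, 6, 5 and 5 against 19, 15 and 18. Over 20 bases were lost in 20.5, 29.7, 18.2 and 24.0% of Igh C/S junctions in WT and 49.5, 44.6 and 51.9% in ATM-/-. By region the median loss ranged from 4 to 6 bases in WT and from 20 to 37 in ATM-/- at Smu, and from 4 to 6 against 12 to 17 at Sg1. At Se it was 10, 14, 5 and 5 against 17, 4 and 21, which overlap.

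Elsewhere the difference was smaller. Outside chromosome 15 and Igh C/S the median loss was 6, 12, 12 and 12 bases in WT and 16, 17 and 16 in ATM-/-, with 5 and 4 bases within the shared runs. WT replicate 1, the library with little bait past the first cut, was low here, and without it the groups still did not overlap. Within 1 Mb of the break it was 20, 23, 18 and 23 against 26, 25 and 28. On chromosome 15 beyond 1 Mb it was 9, 15, 12 and 12 against 15, 15 and 15, where the groups met. WT medians were lowest in Igh and highest near the break, and the ATM-/- medians in Igh lay between those of the rest of the genome and those near the break or reached the first.

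**Figure D4:**
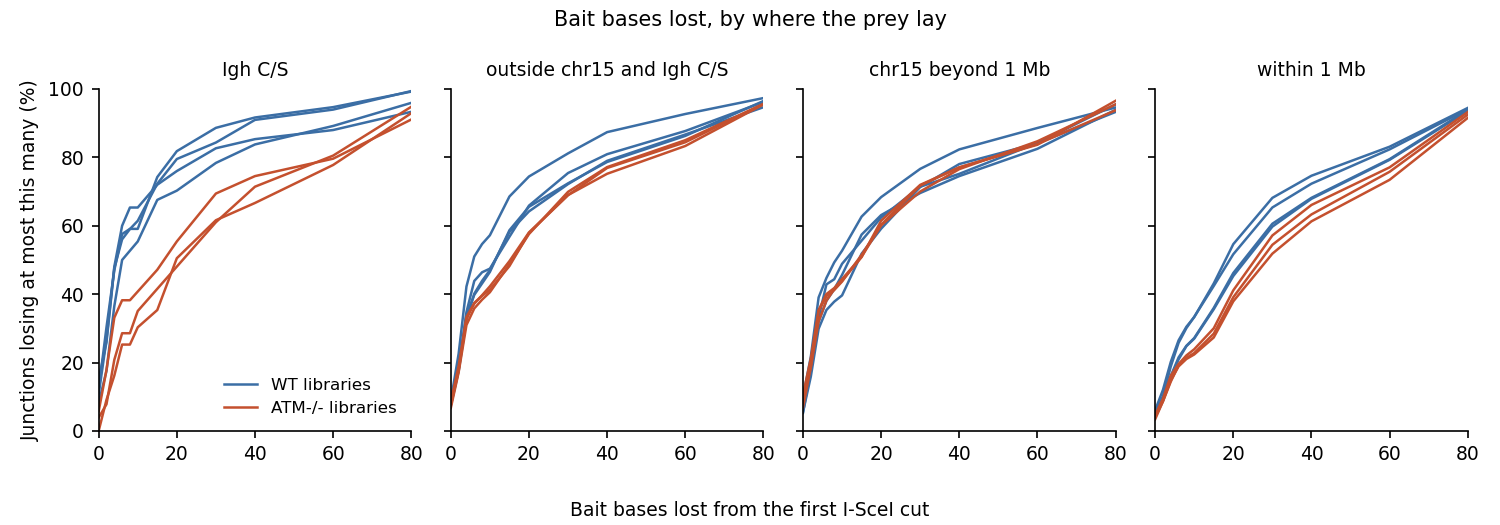
Cumulative share of junctions (%) that lost at most the number of bait bases on the x axis, 1 line per library, in 4 panels by the place of the prey. In Igh C/S all ATM-/- lines run under all WT lines over most of the range, with medians of 17 to 21 bases against 5 to 7. On chromosome 15 beyond 1 Mb the lines overlap.

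Direct joins, those with no inserted base, were compared by the number of bases that bait and prey share at the junction, a measure of microhomology. In Igh C/S an overlap of 2 or more bases was present in 33.7, 42.2, 38.2 and 36.0% of direct joins in WT and 65.5, 62.5 and 59.3% in ATM-/-, from 104, 45, 76 and 50 joins against 58, 104 and 54. The groups lay far apart, and the differences within the shared runs were 24.3 and 23.3 points (exact permutation p = 0.0286, adjusted 0.0647). Joins without any overlap made up 35.6, 28.9, 27.6 and 28.0% against 12.1, 14.4 and 22.2%. In the labelled switch regions alone, an overlap of 2 or more bases was present in 32.7, 45.0, 37.8 and 37.5% against 60, 58.4 and 54.1%. In all Igh C/S junctions outside the labelled switch regions, pooled over libraries, it was present in 5 of 15 WT joins (33.3%) and 43 of 57 ATM-/- joins (75.4%), with a median bait loss of 8.5 and 26 bases.

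The same measure outside chromosome 15 and Igh C/S was 39.0, 37.7, 41.0 and 40.1% in WT and 51.5, 52.0 and 47.7% in ATM-/-. On chromosome 15 beyond 1 Mb it was 40.1, 48.7, 46.2 and 48.8% against 55.5, 52.7 and 53.6%. The groups did not overlap in either class. Within 1 Mb of the break it was 64.6, 68.2, 65.4 and 70.4% against 66.4, 66.5 and 68.7%, with means of 67.1 and 67.2% and the libraries mixed. Inserted bases did not separate the groups either: in Igh C/S they were present in 37.3, 39.2, 42.4 and 33.3% of junctions in WT and 41.4, 33.8 and 29.9% in ATM-/-.

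**Figure D5:**
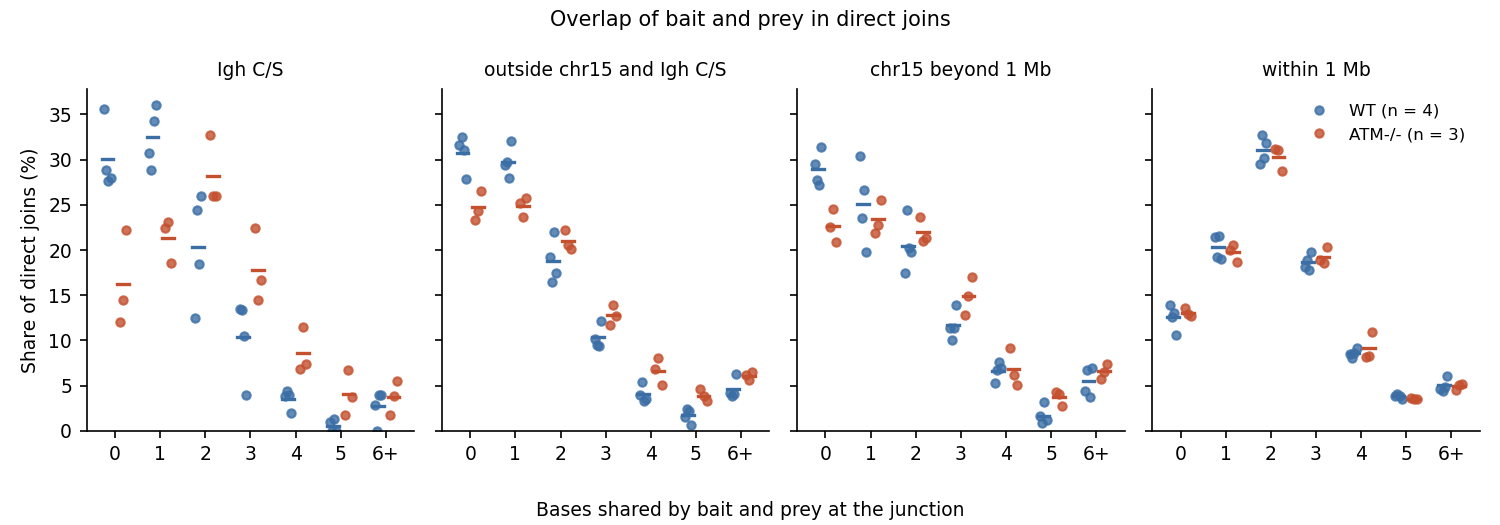
Share of direct joins (%) by the number of bases shared by bait and prey at the junction, in 4 panels by the place of the prey. Points are libraries (WT n = 4, ATM-/- n = 3). In Igh C/S the ATM-/- libraries are lower at 0 and 1 shared bases (means 16.2 and 21.3% against 30 and 32.5%), while within 1 Mb of the break the groups coincide (13.1 and 19.7% against 12.6 and 20.3%).

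Genes hit by AID outside Igh were not called in either direction. Of 32 AID off-target genes 23 had a junction and 18 were tested. Of these 10 had a positive and 8 a negative log2 fold change, with a median of 0.10, against 81 positive of 162 and a median of 0.00 over all genes tested. The list took 2.10% ± 0.575 of junctions outside chromosome 15 in WT and 2.19% ± 0.837 in ATM-/-, which overlap. Il4ra, the IL4 receptor chain and the gene with most junctions outside Igh and chromosome 15, had 9, 1, 6 and 5 in WT and 16, 17 and 5 in ATM-/-. Its neighbour Il21r had 2, 2, 2 and 1 against 2, 5 and 2. Pim1, a kinase and known target of AID, had 2, 6, 4 and 4 against 16, 7 and 1. Cd83, an activation marker, had 7, 2, 2 and 0 against 3, 4 and 4, and Pax5, which maintains B cell identity, 2, 0, 0 and 1 against 3, 6 and 3. Aff3 had 3, 1, 1 and 0 against 1, 6 and 1, and Grap 1, 2, 1 and 0 against 3, 3 and 1. As shares all of these overlap between the groups, so a difference was not detectable at these counts.

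Fragile sites gave the same picture with fewer junctions. Of 9 early replicating fragile genes 5 had a junction and 2 were tested, both negative, with a median of -0.69. Of 25 long or late replicating fragile genes 17 had a junction, 11 in WT and 16 in ATM-/-. These counts of genes are not on a common scale, since WT had 4457 and ATM-/- 6818 junctions outside chromosome 15. Of the 25 genes 5 were tested, 3 positive and 2 negative. The list took 0.434% ± 0.278 and 0.561% ± 0.194 of junctions outside chromosome 15. Of the B cell genes 5 were tested, 3 positive and 2 negative. Cd79b, a chain of the B cell receptor, had 0 junctions in every WT library and 1, 3 and 2 in ATM-/-. It was chosen after its values were seen, as 1 of 5 genes whose shares did not overlap (3.09%), with Smu, Sg1, Se and Ksr2. Of the 6 Ksr2 junctions, 4 held letters shared by many recurrent positions. Among genes of no list with many junctions, Mmp24 had 7, 3, 2 and 2 in WT and 5, 7 and 6 in ATM-/-. Apbb1 had 1, 1, 3 and 0 against 1, 7 and 5, and Bcl2l1, which encodes the survival protein BCL-XL, 1, 2, 2 and 0 against 5, 4 and 3. Fermt2 had 2, 0, 5 and 1 against 3, 6 and 1, and Sfi1 0, 2, 3 and 2 against 1, 4 and 3.

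The other antigen receptor loci, where RAG rather than AID makes breaks in developing lymphocytes, held few junctions. The D-J part of Igh had 2, 2, 5 and 3 in WT and 7, 13 and 4 in ATM-/-, and the V part 0, 0, 2 and 1 against 1, 3 and 2. Igk, a light chain locus, had 6, 5, 11 and 0 against 6, 6 and 0. Igl had 2 junctions in each group over all libraries. The T cell receptor loci had 2 and 1 at Tra/Trd, 0 and 1 at Trb and 1 and 0 at Trg, in WT and ATM-/-. None of these loci was called.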

How the data were processed

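Junction lists were deposited by the authors with 1 row per junction and prey positions on mm9, per the submitters' processing notes. No source used here gives the aligner or the filters. Per the file headers the lists also hold a column of whole-number counts per junction whose name points to PCR, deposited by the authors. What it counts is not stated and it is 0 for 40.6 to 66.4% of junctions, so it was not used. The deposited alignment scores were not used either. Rows identical in 8 position columns (55), 3 mitochondrial rows and 1 broken row were left out. Regions were counted in junctions, without normalization.

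The break was placed at chromosome 15, base 61818878, the base that best parts minus-strand from plus-strand junctions (95.0% of those within 2 kb). The ends of loci came from junctions labelled with neighbouring genes. The bait was aligned to each read (match 1, mismatch -3, gap -3), with 121 bait bases before the first cut. Junction counts were compared with edgeR 4.0.16 in R 4.3.3 (glmQLFit, glmQLFTest) over all 16 libraries. The library size was junctions outside chromosome 15, or all junctions for chromosome 15 regions. Each tally had its own Benjamini-Hochberg adjustment, with a threshold of 0.05. SE is the fold change over the square root of F. Bins needed 20 and genes 10 junctions over all libraries. For shares of a library, the difference of group means was tested by exact permutation, two-sided. Counts per bin were compared between replicates of a group by chi-square. No difference was detected between WT pairs (chi-square p from 0.156 to 0.648). These pairs had fewer bins (43 to 100 degrees of freedom), so the test could show less for them. Nor was a difference detected between ATM-/- replicates 1 and 2 (chi-square 170 on 172 degrees of freedom). ATM-/- replicate 3 differed more, both from replicate 1 (191 on 155) and from replicate 2 (209 on 166). The few positions shared between libraries show that none is a copy of another.

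Named were called features, all regions of chromosome 15, receptor loci, switch regions, called bins and those of chromosome 12 from 70 Mb, in each group the 10 genes hit most often, list members with 10 or more junctions, and the 5 chromosome 15 genes beyond 1 Mb with most junctions in each group. The members and lists were chosen with earlier results of these data known. The fits were tested on simulated data drawn with a fixed spread, not that of these libraries. That test therefore does not give error rates for these data. Alternatives were TMM factors, DESeq2 1.42.0, other library sizes, bins and minimums, distinct positions, run and replicate blocks, leaving out junctions at letters shared by recurrent positions (added after the data were seen), and each library left out.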

Additional observations from a re-analysis of the deposited data

Results flagged for a closer look

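In 52 values checked over the 4 WT libraries, 5 had 1 library far from the other 3, with a gap to the nearest that passed Dixon's critical value for 4 samples. Chance gives about 1 such value in 20 among untied, normally distributed values. That rate does not hold for the medians of bait bases lost below. There the other 3 libraries tied at a whole number, so any library that differed would pass. WT replicate 1 was low in median bait bases lost outside chromosome 15, at 6 against 11 in each of the others, and in the same measure without Igh C/S, at 6 against 12. It was high in the share of direct joins in Igh C/S without overlap, at 35.6%, and in the share of all junctions lying 1 to 5 Mb centromeric of the break, at 1.33%. WT replicate 2 was high in median bait bases lost in Igh C/S, at 7 against 5. In all 5 measures the library still lay on the WT side of every ATM-/- library.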

How the results depend on the processing

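Of 1021 alternative values for 62 named results, 970 kept their direction and side of the threshold, 24 lost and 7 gained a call, and 20 changed sign. The named results include library shares, of which 0 were called, so these had no call to lose. With a library left out, their smallest exact permutation p was 0.0667 or 0.1, so they could gain none. Differences within runs or pairs had no p. In those settings only the direction of a share could change. Leaving out each library in turn gave 2 called features in each case, 1 to 2 bins, 0 genes and 16 to 17 regions of chromosome 15. With all junctions as library size 19 features were called. The run as a block, which compares the groups only within the shared runs and so had less power, gave 1 bin. Bins of 10 Mb gave 1, and chromosome 15 beyond 1 Mb included 6 (5 higher, 1 lower). The 7 libraries alone gave 3 bins. The gene tally gave 2 calls with the 7 libraries alone, 1 with the library size beyond 1 Mb and 1 with at least 30 junctions. With the library size beyond 1 Mb, 6 regions of chromosome 15 were called. Sign changes were these log2 values. Il4ra was -0.18 with the run as a block and ranged from -0.074 to 0.52 with libraries left out, where it was -0.037 without ATM-/- replicate 1. Pim1 was 0.65 with TMM factors and 0.73 with DESeq2 and ranged from -1.13 to 0.37 with libraries left out. The region 10 to 100 kb centromeric was -0.046 with TMM factors, -0.82 with DESeq2, -0.10 with distinct positions and -0.65 with the library size beyond 10 kb. The region 100 kb to 1 Mb centromeric was -0.61 with DESeq2 and -0.45 with the library size beyond 10 kb. The genome outside chromosome 15 was -0.085 with DESeq2 and -0.21 with the library size beyond 1 Mb. The region within 1 kb centromeric was -0.52 with DESeq2, -0.018 with distinct positions and -0.071 with the other break position. The cause of these changes was not tested. The replicate block gave 2 features, 2 bins, 0 genes and 16 regions. Same-numbered libraries correlated at 0.069, -0.039 and 0.0045 in their deviations. Pairs known to share a sequencing run reached only 0.101 and 0.065. These correlations therefore cannot decide whether same-numbered libraries were paired. No region of chromosome 15 was merged or left out for low counts, so that alternative is the fit reported. Gene counts are too low to show moderate differences.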

Other observations

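Of 11066 prey positions outside chromosome 15, 141 were hit in 2 or more of the 7 libraries, 51 of them in Igh C/S. The letters ctgctag or ccgacga lay in the window of 30 of the 141 (21.3%), against 0.384% of positions hit in 1 library. Their share of junctions outside chromosome 15 was 0.765, 0.110, 1.99 and 2.74% in WT and 1.82, 0.847 and 0.314% in ATM-/-, so it did not separate the groups. Whether these junctions are artefacts, for example of priming, was not tested. Without them, an alternative added after the data were seen, 2 features, 2 bins, 0 genes and 17 regions of chromosome 15 were called, as with them. The 4 positions found in most libraries are shown to make the shared letters visible, with these letters in capitals, on mm9 and in the direction of the prey.
Wwc1, minus strand, chr11:35684461-35684477: tgcagtgtCCGACGAgt
Prr15, minus strand, chr6:54279387-54279403: ctggcaagCTGCTAGtc
Lemd1, plus strand, chr1:134124659-134124675: ctagccCTGCTAGtccg
No gene label, minus strand, chr1:154652092-154652108: tccccaCTGCTAGccga
The first pair had 3 WT and 2 ATM-/- junctions each, and the others 2 and 2.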
